A study of Mus musculus with 49 samples.

Results

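Spleen cells labelled as associated with injected iron oxide nanoparticles were compared with bulk spleen of the same mice across all genes. The comparison used 6 of the 49 RNA sequencing libraries of the study, taken by their labels and paired by mouse: 3 libraries of nanoparticle-associated cells (NA cells below) and 3 of bulk spleen, from mice 1, 2 and 3. All 3 were HuHER2 transgenic mice, whose transgene is human HER2, a receptor tyrosine kinase amplified in some breast cancers. Neither the promoter of the transgene nor the strain background is named in the sources used here. Each mouse bore a palpable primary mammary tumor, had been palpated from an age of 7 months, and had received BP intravenously once at 5 mg Fe per mouse. BP is the code under which the labels name the nanoparticle preparation. The design text puts organ collection at 7 days after the injection, whereas a treatment label names 31 days. Each spleen was divided: RNA was taken from one section as whole tissue, while the other was digested to single cells, from which a magnet drew the nanoparticle-associated fraction. Bulk spleens of 3 tumor-bearing HuHER2 mice given PBS are shown as levels, with no test. Both tested groups share the transgene, the tumor and the nanoparticle dose. They differ in nanoparticle association, digestion and magnetic sorting at once, and these cannot be told apart, because no digested but unsorted spleen was analysed here.

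The red pulp of the spleen filters blood, and its macrophages engulf aged red cells, break down heme with Hmox1 and return the iron to plasma through the exporter ferroportin (Slc40a1). Macrophages of the marginal zone, which borders the white pulp, carry receptors such as Marco and Cd209b that bind particles and microbes. Stromal cells that make Ccl19, Ccl21a and Cxcl13 hold T cells and B cells in their zones. Immediate early genes are transcription factors and feedback regulators that cells switch on within minutes of a stimulus, and tissue digestion is a known stimulus of this kind.

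The 9 spleen libraries held 10102739 to 14453237 counts, and 19917 to 21593 genes had at least 1 count. Mitochondrial transcripts took 3.32, 2.99 and 3.17% of counts in NA cells of mice 1, 2 and 3 and 5.14, 4.10 and 4.24% in bulk spleen. Ribosomal protein transcripts took 6.24 to 6.80% in NA cells and 9.89 to 11.3% in bulk spleen. In the 3 PBS spleens, mitochondrial transcripts took 7.11, 5.09 and 4.09% and ribosomal protein transcripts 6.91, 12.2 and 10.8%. The first PBS spleen thus lay close to the NA cells in its ribosomal share and had the highest mitochondrial share. Of 15026 genes tested, 4034 were higher in NA cells and 4088 were lower, by edgeR's quasi-likelihood test with the mouse as a block. That is 54.1% of the tested genes called, 26.8% as higher and 27.2% as lower, and the counts of each gene list below stand against these shares. Values of the 3 NA cell and 3 bulk libraries did not overlap for 8370 genes (55.7%). The median log2 fold change of all tested genes was -0.05. Scaled by the library total alone, without TMM (trimmed mean of M-values) factors, that median moved by -0.18, and 3051 genes were higher and 5180 lower (37.1% of calls higher, against 49.7%). Changes past 3 on the log2 scale numbered 194 upward and 80 downward. Levels are CPM, that is counts scaled to a common library size, for mice 1, 2 and 3 in that order, and log2 fold changes with their standard errors. A count of 0 allows up to 3 counts, which is 0.208 to 0.297 CPM in these libraries when scaled by the library total alone. The CPM printed below also use TMM factors, which shift this bound somewhat. In whole tissue and in sorted fractions alike, fewer cells of a type and less RNA per cell cannot be told apart.

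**Figure D1:**
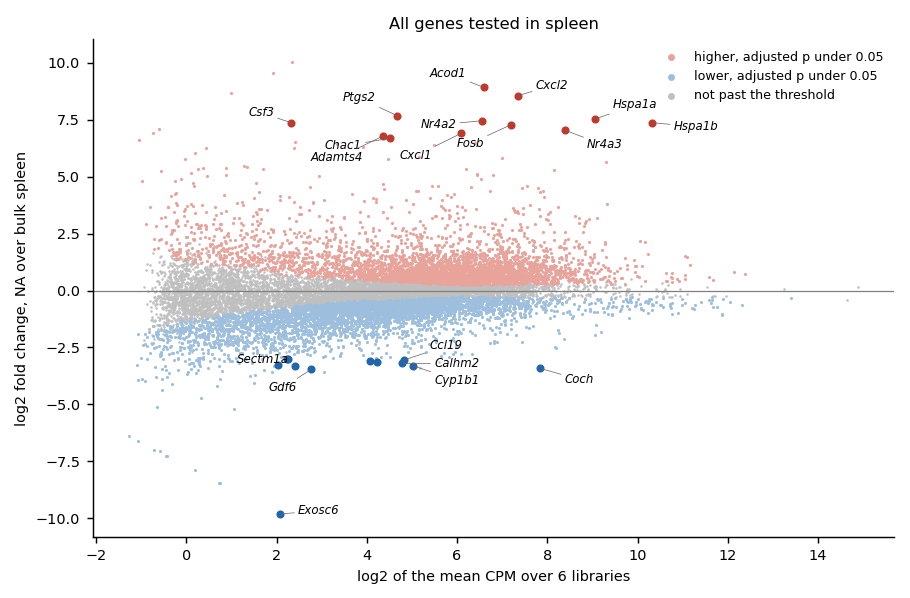
Log2 fold change of NA cells over bulk spleen (y axis) against the log2 of the mean CPM over 6 libraries (x axis) for the 15026 genes tested. Dark points are the 24 genes with the largest changes by the naming rule: the 12 higher ones lie at 6.69 or above, and 11 of the 12 lower ones lie between -3.46 and -2.99. Exosc6 lies at -9.81 because it had no count in NA cells, so its position is no measure of size.

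Immediate early genes were higher in NA cells without exception. All 26 members tested passed the threshold upward, with a median log2 fold change of 3.72, and 0 passed downward. Fosl1 (all bulk libraries at 0) is among them, and the median was the same with Fosl1 at its lower bound. Fosb (ENSMUSG00000003545; chromosome 7, 19302696 to 19310051 on GRCm38), a partner in the AP-1 transcription factor, stood at 303, 252 and 313 CPM in NA cells and at 2.06, 1.58 and 1.95 CPM in bulk spleen. PBS spleens held 2.65, 1.15 and 1.24 CPM. Every NA library lay far above every bulk library, and the log2 fold change was 7.28 ± 0.14 (adjusted p = 1.08e-06). Fos itself stood at 244, 203 and 300.4 CPM against 4.21, 4.02 and 5.05 CPM, a 55.8-fold difference (adjusted p = 3.28e-06). The nuclear receptor Nr4a2 (ENSMUSG00000026826; chromosome 2, 57106830 to 57124003) was at 216, 177 and 167 CPM in NA cells, whereas its bulk values were 1.20, 0.932 and 1.01 CPM (log2 fold change 7.46 ± 0.14, adjusted p = 1.08e-06). Its relative Nr4a3 had 843, 534 and 636 CPM against 5.41, 3.51 and 6.43 CPM, and Nr4a1 had 1402, 1005 and 1294 CPM against 22.3, 21.9 and 28.3 CPM. All 3 nuclear receptors thus stood far above both kinds of bulk spleen in every mouse. Fosl1, another AP-1 partner, had 298 counts over the NA libraries and 0 over the bulk libraries, which makes it at least 106.5-fold higher when the 3 counts allowed are taken over the group. Its exons overlap those of Ccdc85b on the opposite strand over 57.2% of their bases, and reads of the genes cannot be told apart without a known strand setting. The smallest changes in the list were those of Ier5 (1.82-fold), Btg2 (1.86-fold) and Klf2 (1.97-fold), regulators that bulk spleen already held at 203 ± 21.9, 220.3 ± 30.6 and 113 ± 13.9 CPM (mean ± SD, n = 3). Together the 26 transcripts took 1.08, 0.723 and 0.966% of counts in NA cells and 0.144, 0.116 and 0.145% in bulk spleen.

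Feedback genes of the NF-kB pathway were also higher throughout. NF-kB is a family of transcription factors held in the cytoplasm by inhibitors until an inflammatory signal releases it, and its targets include its own inhibitors. All 14 list members were higher (median log2 fold change 1.65). The ubiquitin editor Tnfaip3, which shuts the pathway off, stood at 439, 467 and 499 CPM in NA cells and 47.3, 35.5 and 56.5 CPM in bulk spleen (log2 fold change 3.36 ± 0.14, adjusted p = 1.15e-05). Nfkbid, an inhibitor of nuclear NF-kB, was 12.3-fold higher, and Nfkbiz, a related protein, 7.89-fold. Among the subunits, Rel was 7.08-fold higher (adjusted p = 2.02e-05), Relb 3.32-fold and Nfkb1 3.14-fold. The 3 NA and 3 bulk values did not overlap for any of these 6 genes.

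Chemokines that draw neutrophils and monocytes were among the secreted factors that were higher. Of 18 chemokine list members tested, 13 were higher and 3 lower, with a median log2 fold change of 1.85. Cxcl2 (ENSMUSG00000058427; chromosome 5, 90903871 to 90905938), a neutrophil attractant, stood at 449.6, 251 and 270.1 CPM in NA cells and at 1.12, 0.358 and 1.08 CPM in bulk spleen, with PBS spleens at 0.995, 0.287 and 0.696 CPM (log2 fold change 8.56 ± 0.22, adjusted p = 3.28e-06). Its neighbour Cxcl1 (ENSMUSG00000029380; chromosome 5, 90891241 to 90893115) was at 193, 76.5 and 136 CPM against 2.58, 0.358 and 0.722 CPM, a 119.8-fold difference (adjusted p = 8.87e-06). For both genes the lowest NA library was that of mouse 2, and it still lay far above every bulk library. Cxcl3, from the same gene cluster, had 414 counts over the NA libraries and 4 over the bulk libraries, a ratio of 111 with an exact 95% counting interval of 43.0 to 409. Such an interval covers counting error alone. Ccl3 and Ccl4, which draw monocytes and T cells, were at 123, 60.3 and 83.7 and 109.5, 38.3 and 62.3 CPM in NA cells, against 2.06, 0.430 and 0.866 and 1.89, 0.430 and 1.299 CPM in bulk spleen. Ccl2, which draws monocytes, was 25.3-fold higher (adjusted p = 0.000199). The 3 members that were lower were Pf4 of platelets (2.18-fold lower, with overlapping groups), Cxcl9 of the interferon gamma response (1.73-fold lower) and Ccl24, an eosinophil attractant (1.42, 0 and 0.688 CPM against 3.44, 1.94 and 2.09 CPM). None of these 3 calls held without mouse 2 (adjusted p = 0.0631, 0.108 and 0.0631), and those of Cxcl9 and Ccl24 also failed without mouse 3 (0.0971 and 0.123).

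The stretch just upstream of 3 of these chemokine genes is printed here because they moved together and because each holds a match to an NF-kB motif. Capitals mark the motif GGGNNTTTCC on either strand within the 250 bases before the gene start of the RefSeq promoter table, which overlaps no match of the other motifs searched. The sequences come from that table (GRCm38.p6, plus strand), at chr5:90890995-90891244, chr5:90903649-90903898 and chr5:90785851-90786100. Its gene starts differ from the positions printed with the genes, so the stretches of Cxcl1, Cxcl2 and, below, Chac1 run past those starts.
Cxcl1: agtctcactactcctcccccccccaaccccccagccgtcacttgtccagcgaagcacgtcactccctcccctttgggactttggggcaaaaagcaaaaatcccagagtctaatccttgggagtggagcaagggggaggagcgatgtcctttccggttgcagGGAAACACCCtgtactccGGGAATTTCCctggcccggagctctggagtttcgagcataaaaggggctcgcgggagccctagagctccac
Cxcl2: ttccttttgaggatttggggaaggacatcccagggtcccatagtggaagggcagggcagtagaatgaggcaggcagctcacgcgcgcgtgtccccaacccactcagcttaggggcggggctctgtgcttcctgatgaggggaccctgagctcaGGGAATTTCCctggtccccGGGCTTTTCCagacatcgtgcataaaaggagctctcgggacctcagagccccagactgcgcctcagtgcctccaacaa
Cxcl3: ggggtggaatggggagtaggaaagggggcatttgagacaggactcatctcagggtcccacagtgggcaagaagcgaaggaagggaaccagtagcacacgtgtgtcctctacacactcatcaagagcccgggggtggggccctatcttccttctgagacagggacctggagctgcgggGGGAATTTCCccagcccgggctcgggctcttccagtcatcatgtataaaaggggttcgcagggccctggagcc
Cxcl1 and Cxcl2 held 2 matches each and Cxcl3 held 1. The same motif was found upstream of 203 of the 10916 tested genes with an entry in the table (1.86%), of 14 of 310 genes called higher by a log2 of at least 2 (4.52%) and of 8 of 329 called lower by that much (2.43%). In the chemokine list it was found for 4 of 12 members with an entry, and in the NF-kB feedback list for 4 of 11. The AP-1 motif TGANTCA was found in 5.73% of all these stretches, 12.9% of those of the strongly higher genes and 7.60% of those of the strongly lower genes. A match is a run of letters, not a measured binding site.

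Most cytokine genes were higher too. Among 22 tested members of the cytokine list, 18 were higher and 1 lower (median log2 fold change 2.95, the same with Areg at its lower bound). Il1rn (ENSMUSG00000026981; chromosome 2, 24336853 to 24351494), which encodes the antagonist of the interleukin-1 receptor, stood at 292, 144 and 215 CPM in NA cells and 8.94, 5.52 and 4.91 CPM in bulk spleen (log2 fold change 5.06 ± 0.18, adjusted p = 8.87e-06). Il1r2, the decoy receptor of interleukin-1, was at 192, 147 and 160.4 CPM against 1.89, 2.44 and 1.16 CPM. Il1b itself was at 369, 167 and 189 CPM against 27.1, 29.2 and 21.7 CPM, 8.77-fold higher (adjusted p = 0.000151). Agonist, antagonist and decoy receptor of this pathway were thus all higher in each mouse. Il6 had 54.4, 9.17 and 25.9 CPM in NA cells and 0.344, 0.215 and 0.433 CPM in bulk spleen. Il10, an anti-inflammatory cytokine, had 29.0, 10.2 and 21.2 CPM against 0.516, 0.0717 and 0.144 CPM. In both, mouse 1 was highest and mouse 2 lowest among NA libraries, and no bulk library came near them. Csf3, a growth factor of neutrophils, had 382 counts over the NA libraries and 2 over the bulk libraries, a ratio of 205 (exact 95% counting interval 56.3 to 1697). Areg, a growth factor of the EGF family, had 36 counts against 0 and was at least 12.9-fold higher. Il18, which macrophages hold ready as a precursor, was the 1 member that was lower, at 16.0, 6.46 and 10.7 CPM against 40.7, 30.3 and 33.4 CPM (adjusted p = 0.000837).

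Acod1 had the largest change among the 12 higher genes named by the rule. This gene (ENSMUSG00000022126; chromosome 14, 103046977 to 103056573) encodes the mitochondrial enzyme that makes itaconate in activated macrophages. Its levels were 262, 158 and 159 CPM in NA cells and 0.516, 0.358 and 0.289 CPM in bulk spleen, while PBS spleens held 0.415, 0.287 and 0.309 CPM. The difference was 8.92 ± 0.16 on the log2 scale, or 486-fold (adjusted p = 1.08e-06). Ptgs2, the inducible cyclooxygenase of prostaglandin synthesis, stood at 76.1, 33.1 and 43.1 CPM against 0.258, 0.287 and 0.144 CPM (log2 fold change 7.68 ± 0.29, adjusted p = 1.06e-05). Adamts4, a matrix protease, was at 57.1, 18.6 and 45.7 CPM against 0.859, 0.287 and 0 CPM. In the list of macrophage activation enzymes, 7 of 11 tested members were higher and 0 lower. The classical enzyme Nos2 was at 4.04, 1.88 and 3.36 CPM in NA cells and 1.12, 1.65 and 1.44 CPM in bulk spleen and did not pass (adjusted p = 0.072, but 0.0346 without mouse 2 and 0.0281 with no filter). Arg1, its counterpart in alternative activation, gave 0.638, 6.67 and 5.43 CPM against 5.41, 8.17 and 0.794 CPM, with overlapping groups (adjusted p = 0.877).

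**Figure D2:**
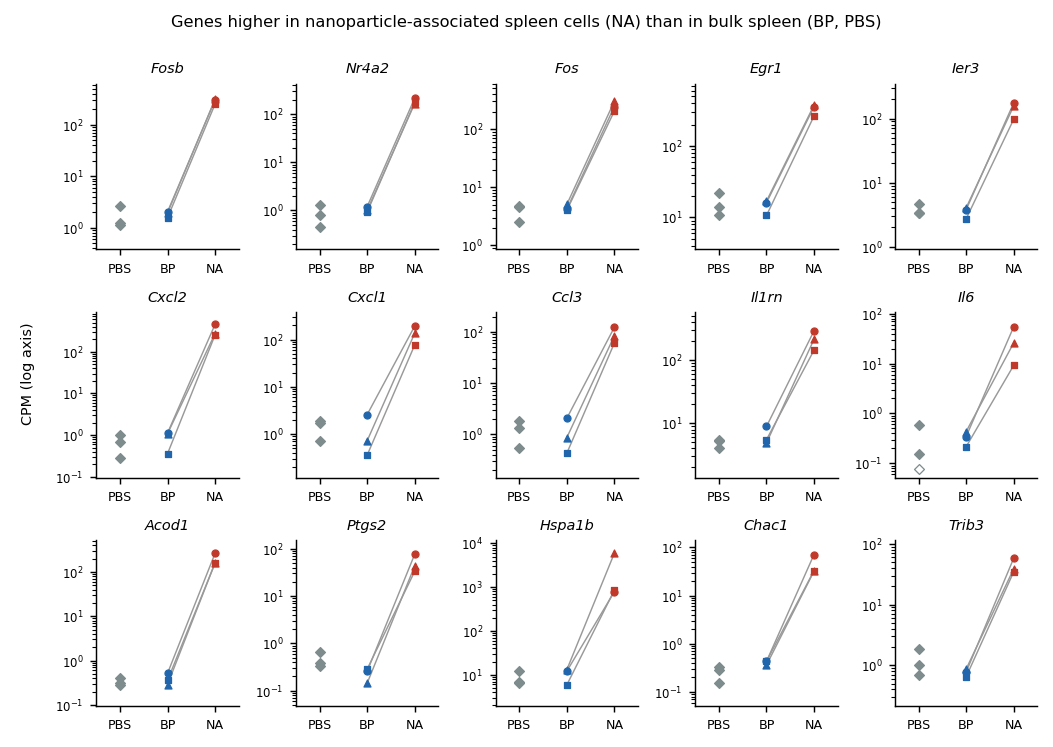
CPM on a log axis of 15 genes in bulk spleen of PBS mice (grey diamonds), bulk spleen of BP mice (BP, blue) and NA cells (NA, red), 1 point per library. Lines join the 2 libraries of a mouse (circle, mouse 1; square, mouse 2; triangle, mouse 3), and an open symbol marks a value of 0 drawn at the lower edge. NA values lie above all bulk values in each panel.

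Heat shock and endoplasmic reticulum stress genes were higher as well, the first with a wide spread between mice. Of 16 heat shock members, 13 were higher and 0 lower (median log2 fold change 1.17). The chaperone Hspa1b stood at 789, 853 and 5983 CPM in NA cells and 12.1, 5.88 and 13.1 CPM in bulk spleen (log2 fold change 7.38 ± 0.57, adjusted p = 0.000134). Its near-identical copy Hspa1a had 334, 358 and 2487 CPM against 5.07, 2.58 and 4.19 CPM, and the division of reads between the copies is uncertain. NA cells of mouse 3 held several times more of both than those of mice 1 and 2. The co-chaperone Hsph1 showed the same order, with 205, 326 and 977 CPM against 126, 89.6 and 104.2 CPM. Hspa8 and Hsp90aa1, which encode abundant chaperones, passed at 1.51-fold and 1.70-fold with overlapping groups. Neither passed without mouse 3 (adjusted p = 0.244 and 0.0665), nor Hspa8 without mouse 2 (0.158). Both calls were also lost by DESeq2 (0.206 and 0.0642) and without the mouse term (0.0891 and 0.0639), and that of Hspa8 was lost under 8 of 11 alternatives in all. Over the list, NA cells of mice 1, 2 and 3 held 9761, 11647 and 23649 CPM and bulk spleen 5929, 5276 and 5456 CPM.

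The unfolded protein response couples stress of the endoplasmic reticulum to the factors Atf4 and Ddit3 and to their targets. Here 12 of 14 members were higher and 2 lower (median log2 fold change 1.58). Chac1 (ENSMUSG00000027313; chromosome 2, 119351229 to 119354381), which degrades glutathione, stood at 70.8, 32.8 and 32.0 CPM in NA cells and 0.430, 0.430 and 0.361 CPM in bulk spleen (log2 fold change 6.69 ± 0.27, adjusted p = 1.13e-05). Trib3 (ENSMUSG00000032715; chromosome 2, 152337422 to 152344032), a pseudokinase target of the same factors, was at 57.7, 34.4 and 38.6 CPM against 0.774, 0.645 and 0.866 CPM (log2 fold change 5.79 ± 0.23, adjusted p = 1.11e-05). Both rose by a larger factor than Atf4 (3.66-fold) and Ddit3 (5.02-fold), although these 2 were also higher in every mouse. Sesn2, a stress sensor, was 8.23-fold higher and the chaperone Hspa5 2.14-fold (adjusted p = 1.06e-05 and 0.00026). The 2 lower members were Pdia4 (1.59-fold) and Sdf2l1 (1.45-fold), folding proteins of the endoplasmic reticulum, and the call of Sdf2l1 was lost without mouse 2 (adjusted p = 0.138). The stretch upstream of Chac1 is shown because it holds a match to TGATGNAA, the composite motif of C/EBP and ATF factors, in capitals on the reverse strand (chr2:119350992-119351241, GRCm38.p6, plus strand).
Chac1: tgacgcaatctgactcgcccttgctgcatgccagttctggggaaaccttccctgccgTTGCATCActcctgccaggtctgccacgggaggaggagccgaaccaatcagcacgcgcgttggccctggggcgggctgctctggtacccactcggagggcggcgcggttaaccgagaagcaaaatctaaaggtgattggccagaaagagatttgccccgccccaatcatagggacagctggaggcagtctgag
That motif was found upstream of 2.50% of tested genes with an entry, and of 4 of 13 members of the list.

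Antioxidant genes moved in both directions. Of 19 tested members of the oxidative stress list, 12 were higher and 2 lower (median log2 fold change 0.51). Slc7a11, the cystine importer that feeds glutathione synthesis, stood at 131, 74.5 and 75.1 CPM in NA cells and 9.11, 4.95 and 7.29 CPM in bulk spleen (13.02-fold, adjusted p = 1.11e-05). Gclc, the enzyme of the first step of that synthesis, was 3.13-fold higher, and Txnrd1, a thioredoxin reductase, 2.89-fold. Gpx4, which repairs lipid peroxides, was lower, with 129, 217 and 182 CPM against 302, 372 and 278 CPM (1.83-fold, adjusted p = 0.00185). Prdx1, a peroxiredoxin, was 1.39-fold lower, a call lost without mouse 2 (adjusted p = 0.0874). Nfe2l2, the factor that drives many antioxidant genes, was 2.54-fold higher. Bach1, which represses some of the same target genes, was 3.43-fold higher.

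Iron genes went in both directions. Of 28 members of the iron and heme list, 8 were higher and 7 lower, shares close to those of all genes, with a median log2 fold change of -0.05. The iron exporter Slc40a1 (ENSMUSG00000025993; chromosome 1, 45908068 to 45926523) stood at 103.1, 70.4 and 84.7 CPM in NA cells and at 616, 457 and 418 CPM in bulk spleen. The PBS spleens gave 192, 455 and 433 CPM. All NA libraries lay below every bulk library, and the difference was -2.53 ± 0.13 on the log2 scale, 5.76-fold lower (adjusted p = 3.27e-05). Fth1 (ENSMUSG00000024661; chromosome 19, 9980598 to 9985098), the heavy chain of the iron store ferritin, was at 2896, 3198 and 3321 CPM against 1333, 1637 and 1325 CPM, 2.20-fold higher (adjusted p = 0.000485). The light chain gene Ftl1 gave 3103, 2899.8 and 3265 CPM in NA cells and 3154, 2807 and 2495 CPM in bulk spleen, with overlapping groups (log2 fold change 0.14 ± 0.12, adjusted p = 0.385). The 2 ferritin chains therefore differed in whether they passed, and the difference between them was not tested. Hmox1, which opens the heme ring, was at 478, 149.9 and 282 CPM against 439.9, 357 and 336 CPM (log2 fold change -0.45 ± 0.26, adjusted p = 0.184), with mouse 1 higher in NA cells and mice 2 and 3 lower. It passed as lower without mouse 1 (log2 fold change -0.77, adjusted p = 0.00506) and, with all mice, with no filter (-0.43, adjusted p = 0.0158). Tfrc, the transferrin receptor, was 1.82-fold higher, although the groups overlapped and its level followed the mouse, at 245, 1209.7 and 723 CPM in NA cells and 129, 699.7 and 395 CPM in bulk spleen. Without the mouse term its call was lost (adjusted p = 0.408). The erythroid list, which contains Tfrc, showed the same order of mice. Slc39a14, an importer of iron not bound to transferrin, was 2.30-fold higher, and the heme exporter Flvcr1 2.29-fold. The copper oxidase Cp, which loads iron onto transferrin, was 2.89-fold lower (adjusted p = 0.00147).

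Genes of splenic macrophages were mostly lower in the NA cells. In the red pulp macrophage list, 13 of 18 members were lower and 1 higher (median log2 fold change -1.10). In the marginal zone list, 5 of 7 were lower and 0 higher (-1.08), and in the list of general macrophage markers 8 of 12 were lower and 1 higher (-0.56). Spic, the transcription factor that specifies red pulp macrophages, stood at 69.3, 20.5 and 52.5 CPM in NA cells and 104.9, 73.9 and 79.2 CPM in bulk spleen (log2 fold change -0.97 ± 0.26, adjusted p = 0.0168). Hpgd, which breaks down prostaglandins, was at 18.1, 9.06 and 14.9 CPM against 86.7, 60.7 and 61.5 CPM, 5.02-fold lower (adjusted p = 0.000124). C1qa, a chain of complement C1q made by tissue macrophages, was at 80.9, 36.5 and 60.3 CPM against 218, 158 and 145 CPM (3.01-fold lower, adjusted p = 0.000643). In each of these 3 genes every NA library was lower than every bulk library, and mouse 2 gave the lowest value. The particle receptor Marco was 2.11-fold lower, Cd209b 2.84-fold and Cd5l 3.15-fold. Without the mouse term, the calls of Spic, Marco and Cd209b were lost (adjusted p = 0.144, 0.0665 and 0.058). Lysozyme (Lyz2) was at 1794, 959 and 1176 CPM against 3071, 2257 and 2226 CPM (1.97-fold lower, adjusted p = 0.00125).

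Other macrophage genes did not pass. Adgre1, which encodes the F4/80 antigen, was at 45.2, 23.96 and 33.9 CPM in NA cells and 47.8, 53.8 and 41.4 CPM in bulk spleen (adjusted p = 0.102). It passed as lower without mouse 1 (adjusted p = 0.00837), with no filter (0.0136) and by library total (0.0311). Cd68, a lysosomal protein, was at 75.9, 30.1 and 57.1 CPM against 69.7, 49.8 and 55.9 CPM, and Csf1r, the receptor for macrophage growth factor, at 379.8, 155 and 260.3 CPM against 337, 266 and 249 CPM (adjusted p = 0.468 and 0.508). In all 3 the groups overlapped. The exception among general markers was Cd14, the coreceptor for bacterial lipopolysaccharide, at 713, 493 and 440.2 CPM against 15.6, 13.5 and 12.6 CPM, 38.7-fold higher (adjusted p = 4.27e-06). Summed over the red pulp list, bulk spleen held 3108, 2474 and 2241 CPM and the PBS spleens 1235, 2454 and 2564 CPM. The first PBS value lay within the range of the NA cells, which held 1747, 791 and 1286 CPM. The erythroid list moved in the opposite order in NA cells, at 17519, 120494 and 75956 CPM, against 25719, 121278 and 55170.2 CPM in bulk spleen, so the mouse with the fewest macrophage transcripts had the most erythroid ones. The red pulp list was lower in each mouse, with median differences of -0.69, -1.84 and -0.75 on the log2 scale of CPM plus 0.5. The part of the erythroid difference in these values was not tested.

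Uptake receptors went in both directions, and more lysosomal genes were lower than higher. Of 26 scavenger and phagocytic receptors, 12 were higher and 10 lower. The oxidized lipoprotein receptor Olr1 was at 21.3, 10.4 and 7.72 CPM in NA cells and 1.29, 0.860 and 0.505 CPM in bulk spleen (14.4-fold higher, adjusted p = 8.4e-05). C5ar1, the receptor for complement C5a, was 7.74-fold higher and the glucan receptor Clec7a 3.32-fold. The receptors Colec12 and Mrc1 were 3.58-fold and 2.52-fold lower. Of 30 lysosomal genes, 3 were higher and 12 lower (median log2 fold change -0.27). The hydrolase gene Gla stood out among them at 96.8, 86.7 and 124 CPM against 12.1, 10.7 and 10.5 CPM (9.15-fold higher, adjusted p = 2.52e-05).

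Complement and stroma genes were lower in the NA cells for most members. Of 17 complement genes, 14 were lower and 2 higher (median log2 fold change -1.59), and the 2 higher ones were the receptors C5ar1 and C3ar1. The call of C3ar1 was lost without mouse 2 or mouse 3 (adjusted p = 0.0544 and 0.0519). Cfd, the protease of the alternative pathway, was 5.13-fold lower and C2 4.04-fold, although C2 shares exons with the gene model Gm20547. Serping1, the inhibitor of C1, was at 38.0, 14.2 and 28.1 CPM against 125, 80.2 and 85.3 CPM (3.75-fold lower, adjusted p = 0.000393). Of 20 stroma genes, 15 were lower and 0 higher, with a median of -2.26. Ccl19 (ENSMUSG00000071005; chromosome 4, 42754525 to 42756577), the T zone chemokine, stood at 8.51, 2.50 and 8.10 CPM in NA cells and 56.5, 36.0 and 58.0 CPM in bulk spleen (log2 fold change -3.05 ± 0.25, adjusted p = 0.000157). Cxcl13 of the follicles was at 17.6, 12.7 and 22.0 CPM against 139, 93.7 and 122 CPM (6.81-fold lower, adjusted p = 2.68e-05). Tcf21, a transcription factor of splenic mesenchyme, was at 8.36, 1.25 and 4.05 CPM against 44.2, 27.8 and 24.7 CPM (7.80-fold lower, adjusted p = 0.000882). The stroma list summed to 618, 246 and 500.0 CPM in NA cells and 1395, 923 and 1046 CPM in bulk spleen, without overlap.

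**Figure D3:**
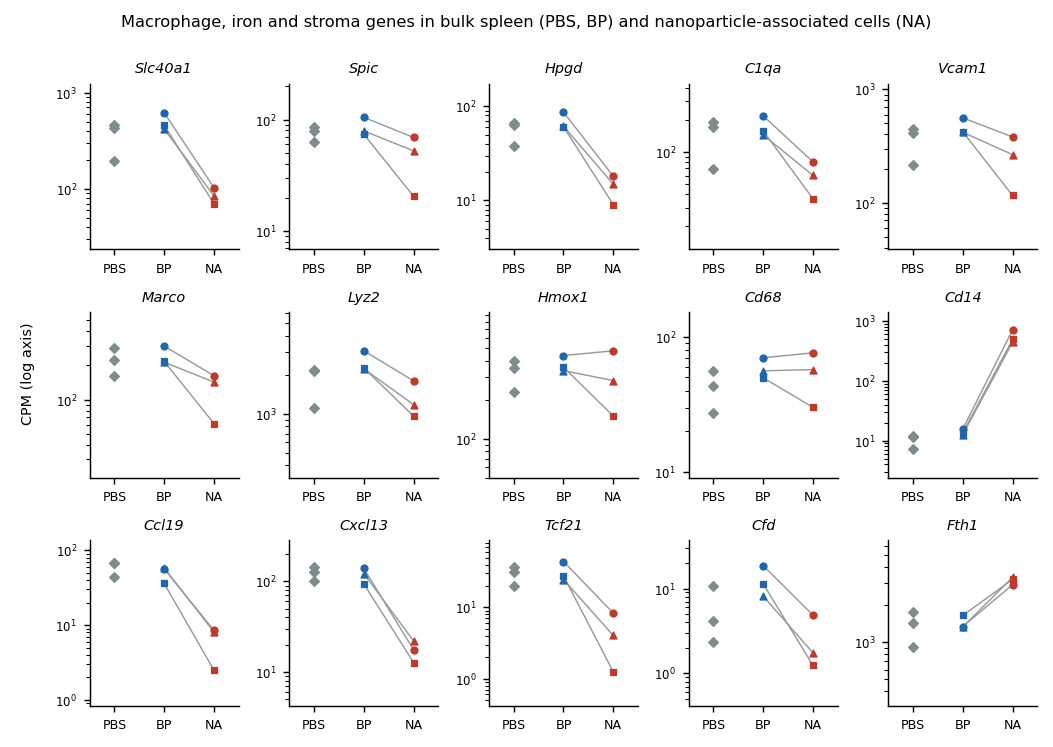
CPM on a log axis of 15 macrophage, iron, complement and stroma genes in bulk spleen of PBS mice (grey diamonds), bulk spleen of BP mice (blue) and NA cells (red), 1 point per library. Lines join the libraries of a mouse (circle, mouse 1; square, mouse 2; triangle, mouse 3). Cd14 and Fth1 are higher in NA cells, Hmox1 and Cd68 overlap, and the other 11 genes are lower in each mouse.

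The remaining genes with the largest losses had no common role among the lists. Coch (ENSMUSG00000020953; chromosome 12, 51593341 to 51605771), which encodes the secreted protein cochlin, stood at 62.0, 10.7 and 62.2 CPM in NA cells and 554, 342 and 331 CPM in bulk spleen (log2 fold change -3.41 ± 0.46, adjusted p = 0.00107). Cyp1b1, a cytochrome P450 enzyme, was at 8.93, 1.56 and 8.79 CPM against 72.2, 47.3 and 55.1 CPM. Calhm2, a channel protein, was at 5.60, 3.33 and 7.49 CPM against 53.5, 39.9 and 53.9 CPM. These 3 were separated from all bulk libraries in every mouse. Gdf6, Sectm1a, Senp8, Kazald1, Ccdc69, Dsc2 and Gulp1 were lower by 7.96-fold (Gulp1) to 11.0-fold (Gdf6). Exosc6 had 0 counts in the NA libraries and 323 in the bulk libraries, which makes it at least 100.4-fold lower. All of its exon bases lie within those of Aars on the same strand, so its counts are uncertain.

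Genes of neutrophils were higher in the NA cells. Of 16 members of that list, 13 were higher and 0 lower (median log2 fold change 1.10). The granule gene Ngp stood at 1368, 912 and 699 CPM in NA cells and 386, 251 and 132 CPM in bulk spleen (4.08-fold, adjusted p = 0.00013). Ltf, which encodes the iron-binding granule protein lactoferrin, was at 689, 483 and 357 CPM against 222, 154 and 78.9 CPM (3.53-fold, adjusted p = 0.000163). Mpo, the peroxidase of early granules, was 3.09-fold higher, and Retnlg of mature neutrophils 3.10-fold. S100a8 and Ly6g did not pass (adjusted p = 0.0691 and 0.077), although both did with RLE scaling (0.0349 and 0.0464), and S100a8 also by DESeq2 (0.00844), with no filter (0.00701) and without mouse 1 (0.0138). In all 3 mice the NA library exceeded the bulk library for Ngp, Ltf, Mpo and Retnlg, and among both kinds of library mouse 1 was highest for Ngp and Ltf. Monocyte genes did not move together, with 4 of 12 higher, 3 lower and a median of -0.13. One of the 4 is Nr4a1, which also stands in the immediate early list. Ace, of patrolling monocytes, was 2.55-fold higher, and Ccr2 of classical monocytes 1.71-fold lower, a call lost without mouse 3 (adjusted p = 0.0611).

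Endothelial genes were higher in part. Of 14 members, 8 were higher and 1 lower (median log2 fold change 0.67). Cdh5, the cadherin of endothelial junctions, was at 82.9, 35.6 and 63.5 CPM in NA cells and 22.5, 18.3 and 17.5 CPM in bulk spleen (2.99-fold, adjusted p = 0.00115). Plvap of fenestrated vessels was 2.07-fold higher. Stab2, a scavenger receptor of the sinusoids that line the red pulp, was 1.75-fold higher with overlapping groups. Its call was lost with the spread taken over 24 libraries (adjusted p = 0.0935). Pecam1, a pan-endothelial adhesion molecule, was 1.34-fold lower (adjusted p = 0.0311), a call lost without mouse 2 or mouse 3 (adjusted p = 0.238 and 0.0923).

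Lymphocyte markers were present in the NA cells and lower than in bulk spleen for most genes. Of 15 B cell genes, 9 were lower and 4 higher (median log2 fold change -0.86). Ms4a1, which encodes CD20, stood at 266, 247 and 248 CPM in NA cells and 1019.8, 791 and 928 CPM in bulk spleen (3.58-fold lower, adjusted p = 4.88e-05), and the complement receptor Cr2 was 3.90-fold lower. Cd79b, of the B cell receptor, was 2.86-fold lower. Of 16 T cell genes, 9 were lower and 3 higher (-0.55), with Cd3g at 14.3, 17.8 and 16.7 CPM against 38.7, 51.4 and 75.9 CPM (3.30-fold lower, adjusted p = 0.000366). Foxp3 of regulatory T cells was 2.29-fold higher, at 11.9, 11.3 and 12.5 CPM against 4.64, 4.16 and 7.15 CPM. The call of Foxp3 was lost with the spread taken over 24 libraries (adjusted p = 0.078). Of 10 natural killer cell genes tested, 6 were lower and 2 higher, and Klrb1c was 6.03-fold lower while Gzmb was 4.70-fold higher. In the immunoregulation list, 10 of 14 were higher and 1 lower (median log2 fold change 1.49). Cd274, the ligand of the checkpoint receptor PD-1, was at 291, 259 and 335 CPM against 50.2, 37.3 and 51.6 CPM (6.39-fold higher, adjusted p = 1.11e-05). Ctla4 was 6.33-fold higher and Havcr2 5.07-fold. Among dendritic cell genes, 4 of 13 were higher and 2 lower. Ccr7, which directs migration of mature dendritic cells and naive T cells, was at 692, 903 and 1020.1 CPM against 80.2, 90.0 and 129 CPM (8.80-fold higher, adjusted p = 9.73e-06), and the costimulatory gene Cd86 was 6.02-fold higher.

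Interferon-stimulated genes stood apart from the inflammatory genes above. Of 22 members, 9 were lower and 1 higher (median log2 fold change -0.58). Ifit3 was at 1.91, 0.521 and 0.688 CPM in NA cells and 11.1, 6.81 and 4.76 CPM in bulk spleen (7.49-fold lower, adjusted p = 0.000665), and the RNA sensor gene Ddx58 was 2.63-fold lower. Oasl1 was the 1 member that was higher, by 2.78-fold, and did not pass without mouse 3 (adjusted p = 0.106). Among 20 ribosomal protein genes sampled, 13 were lower and 1 higher (median -0.42).

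**Figure D4:**
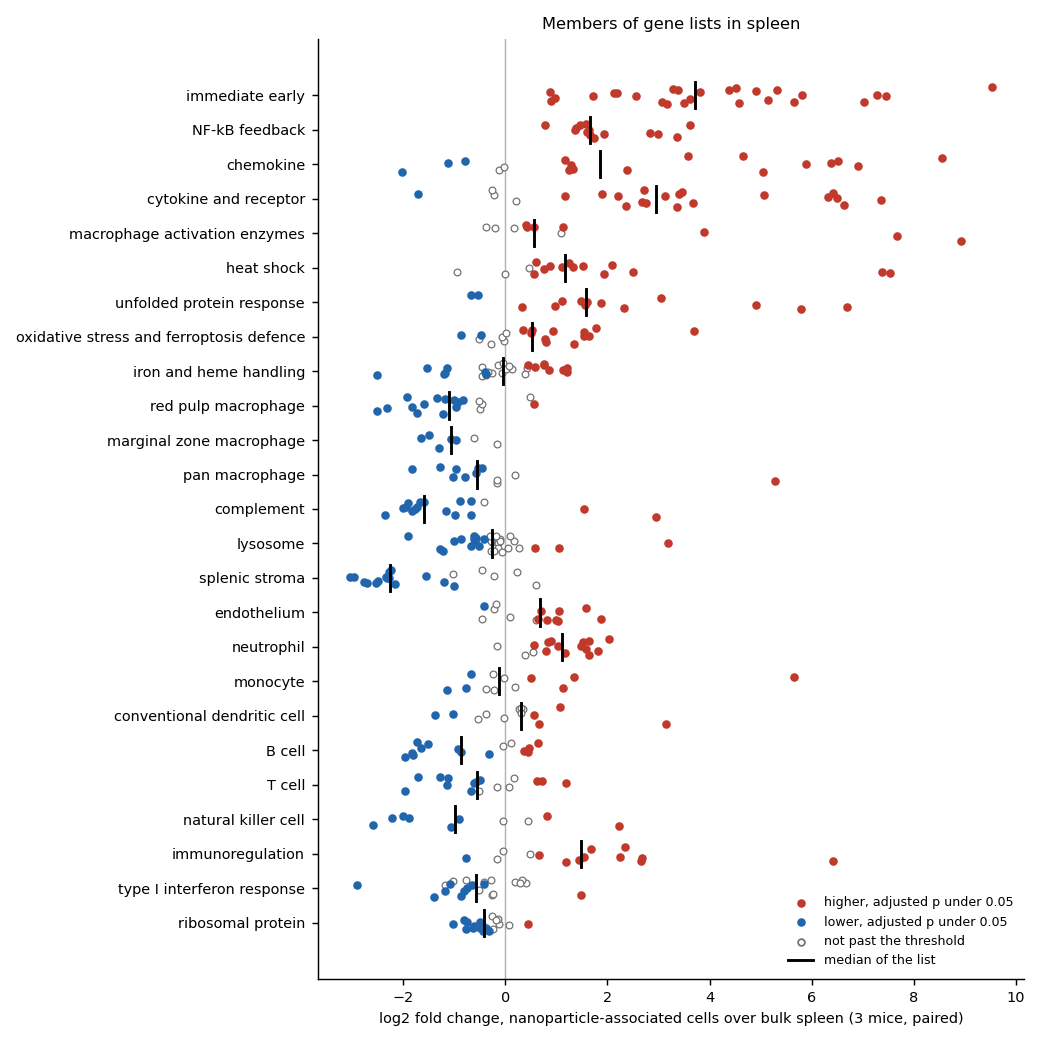
Log2 fold change of NA cells over bulk spleen for the tested members of 25 gene lists (rows), 1 point per gene, with filled points past an adjusted p of 0.05 and a black bar at each list's median. Immediate early genes lie wholly above 0 with a median of 3.72, and no stroma gene past the threshold lies above 0 (median -2.26). Points of Fosl1, Areg and other genes with a group at 0 counts depend on the fit and are no measure of size.

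Transcripts of other organs were also present, unevenly by library. Alb of hepatocytes was at 13.2, 507 and 259 CPM in NA cells and 323, 465 and 31.0 CPM in bulk spleen, and Sftpc of lung epithelium at 62.7, 0.104 and 0.0765 and 16.5, 30.5 and 109 CPM. Of 18 hepatocyte genes 1 passed the test, which was Hp, higher by 1.90-fold, and Hp is also made by neutrophils. The call of Hp was lost without the mouse term (adjusted p = 0.0995) and with the spread taken over 24 libraries (0.204). Of 12 lung epithelium genes, 0 were called by edgeR, 0 had an unadjusted p under 0.05 and 3 were called by DESeq2. Without mouse 1, edgeR called Alb higher (adjusted p = 0.0171) and Sftpc lower (7.86e-10), and it also called Sftpc lower with no filter (1.49e-05). The NA library of mouse 1 was lowest in Alb and highest of the NA libraries in Sftpc. The part of this RNA in the results above was not tested.

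A second test asked where the spleen difference departed from that of the other sorted organs. For each gene, the difference of NA cells over bulk tissue in spleen was set against the mean of the same difference in liver, bone marrow and tumor of the same mice, in 1 fit of 24 libraries. Here 2077 of 17281 genes were called higher in spleen (12.0%) and 1939 lower (11.2%), 23.2% in all. Higher and lower refer here to that difference, not to the level in NA cells. The counts fell when libraries were left out. With marrow and tumor alone as the other organs, in an alternative added after the values were seen, 880 genes were higher and 453 lower. With mouse 1, 2 or 3 left out in turn, the counts were 1319 and 1033, 836 and 604, and 557 and 583. Of 8122 genes called in the spleen comparison, 2874 were also called here, and 2761 of these in the same direction. Both tests contain the difference of the same spleen libraries, so this agreement is no independent support.

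Trib3 had the largest excess in spleen among the genes named. Its log2 fold change was 5.78 in spleen, 4.63 in marrow, 0.70 in tumor and -0.71 in liver, and the spleen value exceeded the mean of the others by 4.24 ± 0.50 (adjusted p = 0.000278). This excess concerns the difference from bulk tissue, not the level. Scaled over the 24 libraries, Trib3 was at 43.2, 25.2 and 28.8 CPM in NA cells of spleen. In those of tumor it was at 45.2, 44.7 and 29.9 CPM. Bulk spleen held 0.567, 0.499 and 0.628 CPM and bulk tumor 15.8, 33.1 and 26.6 CPM. Chac1 gave 6.67 in spleen against 4.15, 2.99 and 1.49 in marrow, tumor and liver, an excess of 3.79 ± 0.40 (adjusted p = 0.000155). Both genes belong to the unfolded protein response list, where 8 of 14 members were called higher in spleen and 0 lower. The median log2 fold changes of that list were 1.59, -0.10, 1.19 and 0.62 in spleen, liver, marrow and tumor. The list was not counted again with liver left out. Pde3b, a phosphodiesterase, had an excess of 4.18 ± 0.65, Mmp19, a matrix protease, of 3.95 ± 0.56, Mreg of 3.93 ± 0.37 and the tight junction gene Cldn1 of 3.71 ± 0.52 (adjusted p at most 0.0012). All 6 also passed with liver left out. Cldn1 levels were nonetheless higher in NA cells of tumor (243, 213 and 303 CPM) than in those of spleen (16.3, 9.01 and 12.4 CPM). Levels of Chac1 in spleen NA cells overlapped those in marrow, and levels of Mmp19 those in liver. Pde3b and Mreg were highest in NA cells of spleen in each mouse. In the other direction, Gdf6, Wt1, Cyp4b1, Pla2g5, Bend5 and Cyp1b1 had differences between -3.94 (Gdf6) and -3.46 (Cyp1b1), and of these Bend5 alone passed with liver left out (adjusted p = 0.0112). Gdf6 did not pass without mouse 1 or mouse 3 (adjusted p = 0.0726 and 1), and Pla2g5 did not without mouse 2 or mouse 3 (0.157 and 1). Leaving out any of the 3 mice ended the call of Wt1 (adjusted p = 0.0742 to 0.178). In the libraries of the other organs, Wt1 reached at most 0.981 CPM, Pla2g5 0.493 CPM and Gdf6 1.72 CPM. Their differences there rest on few counts, so the sizes of these departures are uncertain.

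For some genes of the lists above, the spleen difference also departed from the mean of the other organs. The difference of Slc40a1 was lower in spleen than in the other organs. Its log2 fold changes were -2.53, -0.71, -0.50 and -0.34 in spleen, liver, marrow and tumor (difference -2.01 ± 0.25, adjusted p = 0.000339). Fth1 moved the opposite way, at 1.14, -0.17, 0.27 and -0.62 (1.31 ± 0.22, adjusted p = 0.00171). Il1rn had an excess of 2.97 ± 0.33 and Acod1 of 2.89 ± 0.40 (adjusted p = 0.000205 and 0.000615). The transcription factor Myc, with log2 fold changes of 3.16, 3.00, -0.48 and 1.28 in spleen, liver, marrow and tumor, exceeded the mean of the others by 1.90 ± 0.22 (adjusted p = 0.000248), although its liver value was close to that of spleen. Cd14, at 5.27, 5.57, 4.24 and 0.75, had an excess of 1.75 ± 0.22 (adjusted p = 0.00038) over the mean, but its liver value lay above that of spleen. These 6 genes kept their direction and passed with liver left out. Fth1 did not pass without mouse 3 (adjusted p = 0.0532). By contrast, the immediate early list as a whole did not differ in 1 direction, with 3 of 26 members higher in spleen, 7 lower and a median difference of -0.06. Its median log2 fold change was 3.72 in spleen, 6.40 in liver, 2.89 in marrow and 2.76 in tumor. Fosb was higher in all 4 organs, and its spleen value was below the mean of the others (difference -2.41 ± 0.42, adjusted p = 0.00218). In the stroma list 0 members were higher and 7 of 20 lower, and in the red pulp list 0 were higher and 9 of 18 lower. The stroma list had median log2 fold changes of -2.275, 1.22, -0.77 and -0.99 in spleen, liver, marrow and tumor. Those of the red pulp list were -1.10, 0.51, -0.19 and -1.51, so its median was lower in tumor than in spleen. Neither list was counted again with liver left out.

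**Figure D5:**
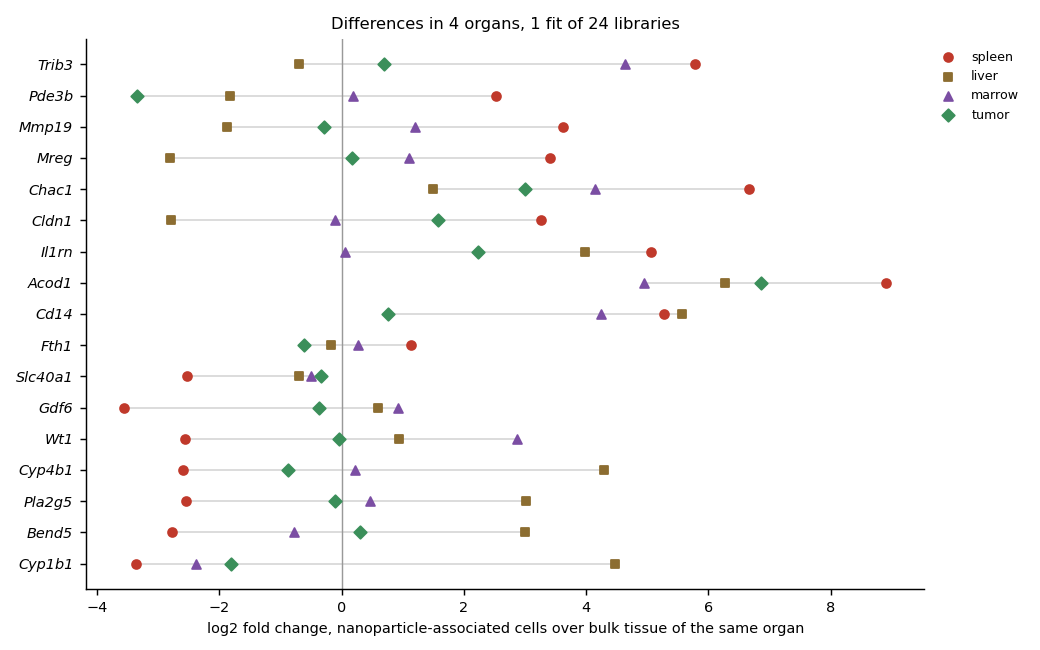
Log2 fold change of NA cells over bulk tissue in spleen (circles), liver (squares), marrow (triangles) and tumor (diamonds) for 17 genes, from 1 fit of 24 libraries. Spleen lies at one end of the range for 16 of the 17 genes; for Cd14 the liver value is higher.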

How the data were processed

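RNA was extracted with a Qiagen kit and treated with DNase, per the labels' protocols. The authors deposited 1 table of expected counts per gene and library, that is, estimated read numbers that need not be whole. The submitters' processing notes name the mm10 mouse build and, without their roles, RSEM 1.3.1, STAR 2.7.9a, cutadapt 3.5 and FastQC 0.11.9. The annotation release and the strand setting of the counting are not given in the sources used here. Overlapping, antisense and near-identical genes can therefore share reads. This bears most on Fosl1, Exosc6, C2, Mzb1, Hspa1a and Hspa1b. Smaller shares of exon bases overlap another gene for Ftl1, Mmp19, Bnip3, Foxp3, Flvcr1, Csf1r, Mpo, Psmb8, Cd274, Klrb1c and Calhm2, among others.

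The deposited expected counts were rounded to whole numbers. Genes were filtered with filterByExpr (minimum count 10), scaled by TMM and tested with edgeR 4.0.16 in R 4.3.3 (limma 3.58.1), by the two-sided quasi-likelihood test with Benjamini-Hochberg adjustment over all tested genes and a threshold of 0.05. The mouse was a block, because both libraries of a pair carry 1 mouse number and each organ was divided. Deviations from the group means correlated within the mouse by 0.376, 0.615 and -0.185 for mice 1, 2 and 3. Between different mice the correlations ran from -0.649 to 0.255. The pair of mouse 3 was thus less alike than some libraries of different mice. In this fit, 2 residual degrees of freedom remained. The second fit took 24 libraries of spleen, liver, marrow and tumor with organ within mouse as the block. No pair of replicates was as alike as counting noise alone would make it, so each counted once. CPM values used TMM factors over the 9 spleen libraries, and gene list sums add CPM over members.

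Named are the 12 genes per direction with the largest called change, without overlap and with a log2 CPM that averaged 2 or more, likewise 6 per direction for the second fit, and up to 4 members per direction of each list with those that mark a cell type or step. Some members outside this rule were named after their values were seen. The members and lists were chosen with earlier results of these data known. Positions come from GENCODE M21 (GRCm38) and promoters from RefSeq (GRCm38.p6). Scripts were tested on simulated data. Alternatives were no mouse term, DESeq2 1.42.0, RLE or library total scaling, other filters (none, or a minimum count of 30), mitochondrial genes left out, each mouse left out, and a spread over 24 libraries. Lymph node and lung were not analysed here.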

Additional observations from a re-analysis of the deposited data

Results flagged for a closer look

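Each of the following 19 genes is listed because its difference between NA cells and bulk tissue in spleen departed from the mean of the same difference in liver, marrow and tumor, by edgeR's test of that departure. Departures are on the log2 scale. Those above 0 mean that this difference was higher in spleen, not that the level in NA cells was. Trib3 departed by 4.24, Pde3b by 4.18, Mmp19 by 3.95, Mreg by 3.93, Chac1 by 3.79 and Cldn1 by 3.71. With liver left out, these 6 gave 3.12, 4.10, 3.16, 2.79, 3.10 and 2.54 and still passed. Il1rn departed by 2.97, Acod1 by 2.89, Myc by 1.90, Cd14 by 1.75 and Fth1 by 1.31, and all 5 passed without liver. Slc40a1 departed by -2.01 and passed without liver as well. Fosb departed by -2.41, although it was higher in NA cells of all 4 organs. Among the genes with a lower difference in spleen, Gdf6 departed by -3.94, Wt1 by -3.82, Cyp4b1 by -3.80, Pla2g5 by -3.68, Bend5 by -3.60 and Cyp1b1 by -3.46. With liver left out, Bend5 gave -2.54 and passed, and the other 5 did not (adjusted p = 0.056 for Cyp4b1 to 0.275 for Cyp1b1). Gdf6, Wt1 and Pla2g5 stood at 1.72 CPM or less in the libraries of the other organs, so the sizes of their departures are uncertain. The groups hold 3 libraries each, too few for a test of single outlying libraries.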

How the results depend on the processing

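The 4034 higher and 4088 lower genes of the spleen comparison stayed within 1.5 times under each of 11 alternatives, from 3036 to 4419 and from 2780 to 5180, and 0 of the 8122 genes were called in the opposite direction under any of them. Without the mouse term (no replicate block, so the pairing was not used), 3036 were higher and 3304 lower, and 6285 of the 8122 were called again in the same direction. That fit ended the calls of 14 named genes in the spleen comparison, among them Spic, Marco, Tfrc, Mki67 and Sptb, and of Fth1 in the comparison of organs (adjusted p = 0.0661). The counts of the organ comparison were less stable. They were 1654 and 1492 without the mouse term, 557 to 1319 and 583 to 1033 with a mouse left out, and 1495 and 1081 by library total. Without liver they were 880 and 453, an alternative chosen after seeing the data, where 939 of the 4016 genes were called in the same direction and 5 in the opposite one. The cause was not tested. Of 1712 values of 156 named genes under alternatives, 1644 kept direction and side of the threshold. Of 286 list medians, 15 moved by more than the spread between mice, and 0 of these 15 changed sign. Changes of sign were not counted among medians that moved by less. The log2 fold change changed sign for 5 genes that did not pass with all mice, and of these Alb passed as higher without mouse 1. With a mouse left out, it ran from -2.12 to 1.51 for Alb, from -1.46 to 0.94 for Arg1, from -0.35 to 0.11 for Cd68, from -0.37 to 0.15 for Csf1r and from -0.00068 to 0.21 for Ftl1, which was at -0.040 by library total. Leaving out a mouse left 2 pairs and 1 residual degree of freedom in the 6-library fit.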

Other observations

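Several groups outside the account above also changed. Plasma cell genes were higher for 5 of 8 members and lower for 1 (median log2 fold change 0.72). Irf4, a transcription factor of plasma cells and activated lymphocytes, stood at 773, 637 and 715 CPM in NA cells and 77.4, 59.9 and 83.7 CPM in bulk spleen (9.67-fold higher, adjusted p = 8.87e-06). Prdm1, its partner in plasma cell fate, was 5.06-fold higher. The secretory gene Jchain was at 676, 309.9 and 495 CPM against 564, 279 and 373 CPM and did not pass (adjusted p = 0.0813), although it was called higher by DESeq2 (0.0107) and with RLE scaling (0.0403). Mzb1 was 2.49-fold lower and shares exon bases with a neighbouring gene. Hypoxia and glycolysis genes were higher for 13 of 18 members and lower for 2 (median 0.64). Hk2, a hexokinase of the first step of glycolysis, was at 85.3, 52.5 and 67.4 CPM against 12.2, 8.60 and 9.53 CPM (6.71-fold higher, adjusted p = 2.52e-05), and the glucose transporter Slc2a1 was 2.51-fold higher. Bnip3, a mitophagy receptor induced by low oxygen, was 1.69-fold lower, a call lost with the spread taken over 24 libraries (adjusted p = 0.117).

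Antigen presentation genes went in both directions. Of 13 class II genes, 5 were higher and 5 lower, and of 12 class I genes, 3 were higher and 4 lower. The costimulatory genes Cd86 and Cd80 were 6.02-fold and 5.33-fold higher. Cd74, the invariant chain, was at 7101, 5876 and 6867 CPM in NA cells and 4099, 3746 and 4041 CPM in bulk spleen (1.66-fold higher, adjusted p = 0.00147). Ciita, the factor that drives class II genes, was at 69.6, 36.5 and 71.2 CPM against 196, 200.1 and 255 CPM (3.78-fold lower, adjusted p = 0.000414). The immunoproteasome subunits Psmb8, Psmb9 and Psmb10 were 1.98-fold, 2.44-fold and 2.77-fold lower.

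Erythroid genes were higher for 10 of 19 members and lower for 1 (median 0.42), and the level followed the mouse. Sptb, a spectrin chain of the red cell membrane, was at 137, 1408 and 789 CPM in NA cells and 60.0, 497 and 236 CPM in bulk spleen (2.79-fold higher, adjusted p = 0.000232). Proliferation genes were higher for 9 of 22 members and lower for 0 (median 0.36) and ordered the mice in the same way: Mki67 was at 328, 2753 and 1496 CPM against 201, 1163 and 635 CPM. Platelet genes were lower for 4 of 12 members and higher for 0, mast cell, basophil and eosinophil genes higher for 4 of 9 and lower for 2, and genes of lipid-associated macrophages higher for 4 of 12 and lower for 5. Plasmacytoid dendritic cell genes were higher for 2 of 8 and lower for 2. Genes of adipocytes and muscle were lower for 6 of 9 members, with Adipoq of fat cells at 2.06, 0.313 and 0.382 CPM against 4.56, 5.95 and 4.48 CPM, a call lost without mouse 3 (adjusted p = 0.0696). Of 12 mammary and milk genes, 2 were higher and 2 lower, and the 1 tested gene of the exocrine pancreas was lower. Among the 13 genes of the mitochondrial genome, 8 were lower and 0 higher, and among 20 nuclear genes of the respiratory chain, 7 were lower and 2 higher.

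Genes with longer transcripts tended to be higher in the NA cells. The median merged exon length was 4886.5 bases for called higher genes, 3628 for called lower genes and 3936 for genes not called. In 4 equal groups of genes from the shortest to the longest, the median log2 fold change was -0.31, -0.10, 0.02 and 0.13.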
